A study of Mus musculus with 4 samples.

Results

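The genes described here are those of glucose uptake, glycolysis, the choice between lactate and mitochondrial oxidation of pyruvate, and creatine kinase, read in whole hearts of mouse embryos at embryonic day 9.5 with and without Salvador (Sav1), the scaffold of the Hippo kinase cascade. Members were chosen by symbol: the Slc2a transporters, Hk1 to Hk3, the Pfk, Aldo, Eno, Ldh and Pdk families, and single genes from Gpi1 to Ckmt2. That gave 38 of the 16675 genes that the array names. All animals were of a C57bl/6 x129 hybrid strain. The control group was 2 pools labelled wild-type, and the other group was 2 pools labelled Salv CKO, a conditional knockout of Salvador. Each pool of hearts was hybridised to 1 single-colour array with Cy5-labelled RNA. The labels call the pools biological replicates. The sources used here do not give the number of hearts per pool, the Cre line or the cells in which it acts. Because whole hearts were pooled, a lower value can stand for fewer cells of a type or for less RNA per cell, and these cannot be told apart.

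Glucose enters cells through the facilitative transporters of the Slc2a (Glut) family and is trapped by hexokinase. The glycolytic enzymes then carry it to pyruvate, which lactate dehydrogenase reduces to lactate unless pyruvate dehydrogenase, held back by the Pdk kinases, sends it into the mitochondria. The heart tube of the early embryo relies mainly on glycolysis. Several steps have a muscle isozyme (Pfkm, Pgam2, Eno3, Ckm) beside a more widely expressed one. Creatine kinases move the phosphate of ATP to creatine and back, with cytosolic forms (Ckm, Ckb) and mitochondrial forms (Ckmt1, Ckmt2).

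The columns were quantile normalised, and values below are log2 intensities unless said otherwise. Differences are Salv CKO minus control with the standard error of limma, n = 2 pools per group. A gene counted as called, and is said to rise or fall, at a limma p under 0.05 after Benjamini-Hochberg adjustment over all 16675 genes. An intensity of 16 (log2 4) was taken as the background limit. Of the 38 members, 31 lay above it on all 4 arrays and 7 did not (Slc2a2, Slc2a5, Slc2a6, Slc2a9, Aldoc, Ldhc and Pdk4). Median deposited intensities were 71.1 to 101 per array. Both control arrays were brighter at the upper end. Their 75th percentiles were 445 and 536, against 361 and 373 in Salv CKO. Saturated probes numbered 109 and 122 in the controls and 73 and 67 in Salv CKO. Across all probes Pearson's r between arrays was 0.946 and 0.947 within the groups and 0.937 to 0.942 across them.

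In the Salv CKO pools 9 of 38 members fell and 2 rose, while 27 did not pass the test. The share that fell was 23.7%, against 5.70% of all genes tested, and the share that rose was 5.26%, against 4.92%. Of the 12402 genes above background on all 4 arrays, 7.58% fell and 6.45% rose. The genes that fell were the transporters Slc2a12 and Slc2a8, the enzymes Hk1, Pfkm, Pgam2 and Eno3, the kinase Pdk3, and the creatine kinases Ckm and Ckb. The genes that rose were Ckmt1 and Gpi1. The calls of Pfkm and Gpi1 are those of their brightest probe, and both changed sign with the mean of probes. The median difference over the 38 members was -0.37, beside -0.04 over all genes, and over the 31 members above background it was -0.28, beside -0.04 over the genes above background. The values of both pools lay on the same side of both controls for 23 members (60.5%), against 54.2% of all genes. Of these, 16 were lower and 7 higher in Salv CKO, while over all genes the groups were separate with lower values for 29.0% and with higher values for 25.2%. For a single gene an exact permutation test over 2 and 2 pools cannot give less than p = 0.333, so each call rests on the spread that limma shares between genes. No call held when any 1 array was left out, a fit with 1 pool in a group. The 11 called members kept their sign each time, which was fixed in advance because their groups did not overlap.

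**Figure D1:**
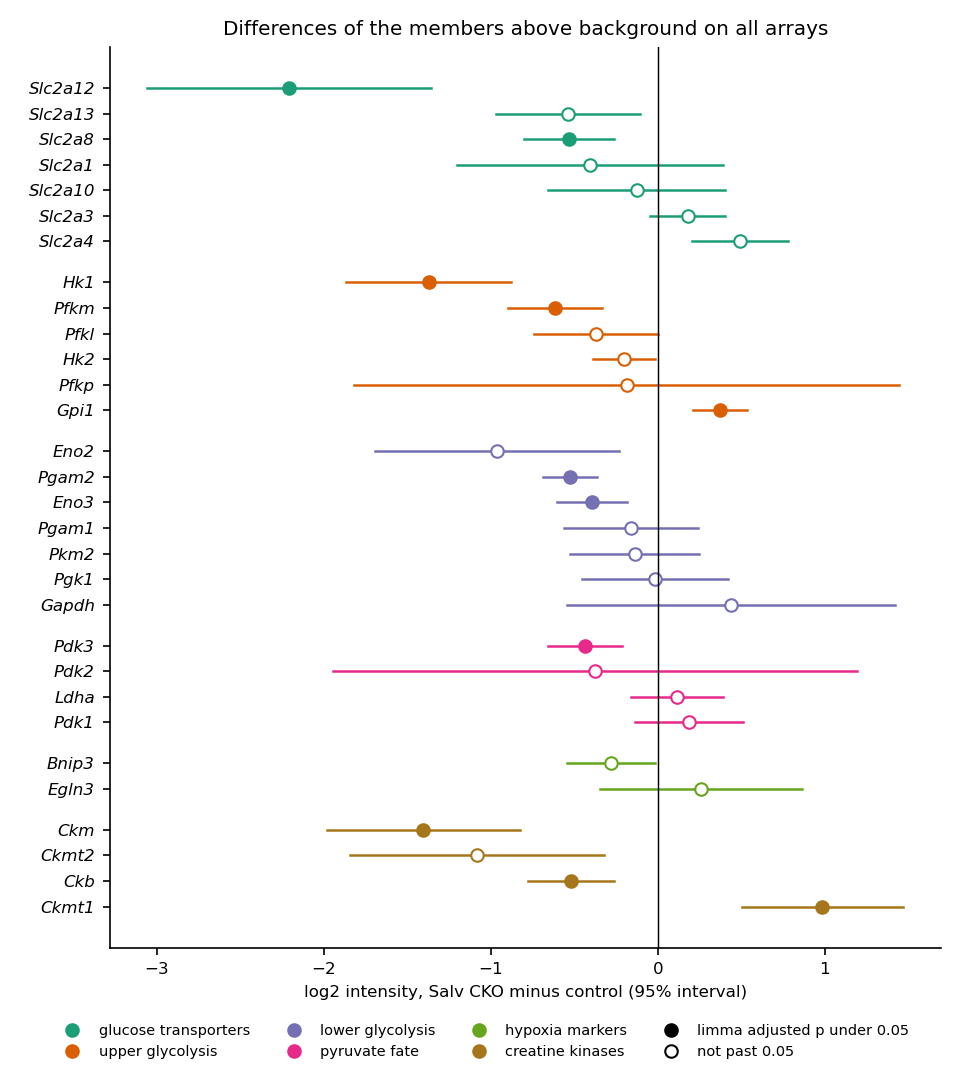
Difference in log2 intensity between Salv CKO and control for the 30 members that were above background on all arrays and not saturated on all of them, grouped by role. Points are limma estimates, bars their 95% intervals, and filled points passed the test. Slc2a12, Ckm and Hk1 lie farthest to the left, and Ckmt1 lies farthest to the right.

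Slc2a12 (Glut12), a transporter found in heart and skeletal muscle, had the largest called difference of the members. Its probe (mMC016045) read 6.59 and 6.42 in the controls and 4.25 and 4.34 in Salv CKO, so both knockout pools stood just above the background limit and far below both controls. The difference was -2.21 ± 0.33 (limma adjusted p = 0.0222), which leaves 21.7% of the control level. In normalised intensity this was a step from 96.1 and 85.8 to 19.1 and 20.3. The size depends on how dim values are treated: it was -1.58 with log2(value + 16), and -0.51 without a call with a floor of 64 (limma adjusted p = 0.0838).

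Slc2a8 (Glut8), a transporter that resides largely inside the cell, read 9.30 and 9.26 in the controls and 8.78 and 8.71 in Salv CKO (mMC025221). It fell by 0.53 ± 0.11 on the log2 scale (limma adjusted p = 0.0430), to 69.1% of control, with no overlap between the groups.

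Slc2a4 (Glut4), the insulin-responsive transporter of muscle and fat, lay the other way. It read 9.35 and 9.39 in the controls and 9.96 and 9.76 in Salv CKO. Both knockout pools were above both controls, but the difference of 0.49 ± 0.11 missed the threshold (limma adjusted p = 0.0578). It passed with log2(value + 16), with dim genes left out and with robust eBayes (limma adjusted p = 0.0493, 0.0359 and 0.0365), and it was 0.03 with the values as deposited.

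The broadly expressed Slc2a1 (Glut1) read 11.44 and 11.71 in the controls and 10.72 and 11.62 in Salv CKO. A single knockout pool was low while the other lay within the control range, so the difference of -0.40 had a wide 95% interval, -1.20 to 0.39 (limma adjusted p = 0.480). Slc2a3 (Glut3), a high-affinity transporter, read 12.68 and 12.86 against 12.99 and 12.91, a difference of 0.18 with an interval of -0.05 to 0.40. For neither gene did the test separate the groups.

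Slc2a13, a proton-coupled inositol transporter of the family, was measured by 2 probes that pointed in opposite directions. The brighter one read 7.78 and 7.67 against 7.19 and 7.18 (-0.54 ± 0.17, limma adjusted p = 0.120). The dimmer one read 4.50 and 3.97 against 6.16 and 6.40 (2.04 ± 0.39, limma adjusted p = 0.0572 over all probes), with 1 control array under the background limit. No direction is therefore given for this gene. Slc2a10 differed by -0.13, with an interval of -0.66 to 0.40.

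The remaining 4 transporters were at or near background. Slc2a6 (3.97 and 2.13 against 2.35 and 0) and Slc2a9 (1.77 and 3.08 against 0 and 2.60) were above the limit on no array, where 0 is the floor. Slc2a2 (Glut2), the transporter of liver and pancreatic islets, was below it in both controls (0 and 2.13) and read 3.97 and 4.18 in Salv CKO. Only 1 knockout pool was thus above the limit, so no fold is given, and the test was not passed (limma adjusted p = 0.129). The fructose transporter Slc2a5 was detected in both controls (4.04 and 4.65) and in neither knockout pool (3.86 and 0). The readings of 4.04 in a control and 3.86 in a knockout pool lay close to the limit on either side. The test was not passed for Slc2a5 (limma adjusted p = 0.352), and its interval of -5.98 to 1.15 allows either direction. No fold is therefore given for Slc2a5 either. Of 11 transporters measured, 2 fell and 0 rose by the limma test, while 3 were lower and 2 higher at an unadjusted limma p under 0.05. Of all genes 14.2% were lower and 12.6% higher at that unadjusted p.

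Hexokinase commits glucose to the cell. Hk1, the form bound to mitochondria in many tissues, read 12.09 and 11.99 in the controls and 10.95 and 10.39 in Salv CKO (mMC010219). It fell by 1.37 ± 0.19 on the log2 scale (limma adjusted p = 0.0197), to 38.7% of control. Its second probe read 10.90 and 10.99 against 10.18 and 10.28 and was called as well (-0.72 ± 0.09, limma adjusted p = 0.0214 over all probes). Hk1 was the single member with several probes for which another probe was also called.

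Hk2, the hexokinase of insulin-responsive muscle, read 14.55 and 14.42 in the controls and 14.28 and 14.29 in Salv CKO. Both knockout pools were below both controls, by 0.20 on average, and the test was not passed (limma adjusted p = 0.159). The 95% interval of -0.39 to -0.02 for Hk2 lies apart from the interval of -1.87 to -0.88 for Hk1.

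Gpi1, glucose-6-phosphate isomerase, was called higher on its brightest probe, at 14.12 and 14.06 against 14.47 and 14.45 (0.37 ± 0.06, limma adjusted p = 0.0294). Its other probes did not share that direction. One read 9.83 and 9.78 against 9.85 and 9.74 (-0.01), and the other read 12.73 and 12.18 against 12.07 and 11.58 (-0.63 ± 0.25, limma adjusted p = 0.239 over all probes). The mean of the probes gave -0.09 and the values as deposited gave -0.08 on the brightest probe, so the rise depends on the probe and on the scaling.

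Phosphofructokinase is the main control point of the pathway. The muscle subunit Pfkm read 12.10 and 12.18 in the controls and 11.39 and 11.66 in Salv CKO (mMR030882) and fell by 0.61 ± 0.11 on the log2 scale (limma adjusted p = 0.0331). A dimmer probe of Pfkm read 6.99 and 6.69 against 7.93 and 7.69, a difference of 0.97 ± 0.20 with no call (limma adjusted p = 0.0669 over all probes), and the mean of both was 0.18. The liver subunit Pfkl had normalised intensities of 2531 and 3210 in the controls and 2054 and 2365 in Salv CKO. Its log2 difference of -0.37 was not called (limma adjusted p = 0.188). Pfkl was called lower with arrays centred on their median (-0.60, limma adjusted p = 0.0332) and as deposited (-0.87, limma adjusted p = 0.0278). With the replicate number as a block it also passed (limma adjusted p = 0.0466). The platelet subunit Pfkp was close to background, at 4.04 to 5.30 over the 4 arrays.

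The 2 remaining enzymes of the upper pathway gave no usable difference. Tpi1, triosephosphate isomerase, was saturated on all 4 arrays with its bright probe. A dimmer Tpi1 probe read 7.10 and 6.83 against 6.99 and 7.01, a difference of 0.04 with an interval of -0.48 to 0.55. Aldoc, an aldolase of brain, was above background on no array (2.76 and 3.08 against 3.08 and 1.43). Other aldolases that the rule would have taken carry no name in the probe table and were not analysed here.

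**Figure D2:**
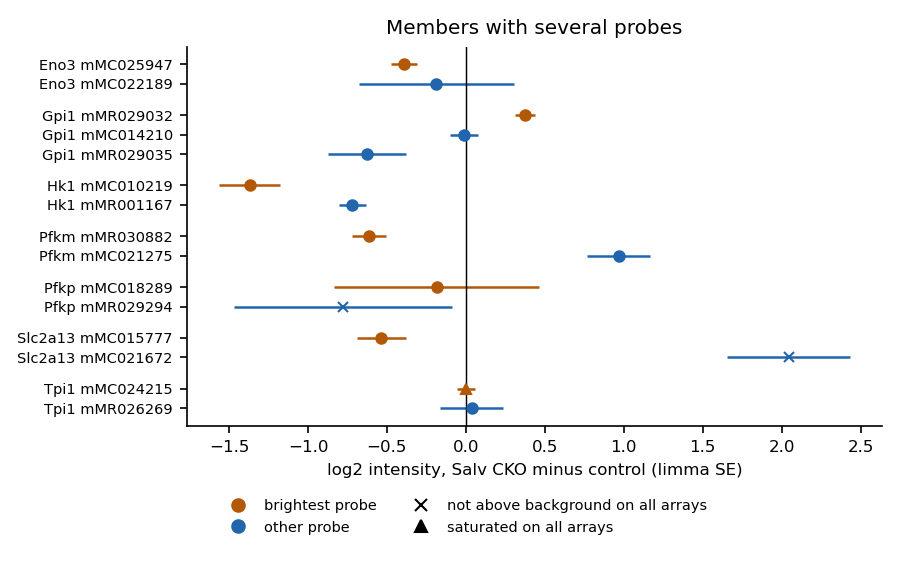
Difference in log2 intensity (Salv CKO minus control, with the limma standard error) for each probe of the 7 members that had several. Both Hk1 probes lie below 0, whereas the probes of Pfkm, Slc2a13 and Gpi1 fall on both sides of it.

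In the lower pathway the muscle isozymes Pgam2 and Eno3 fell, while Pgam1, Pgk1, Pkm2, Gapdh and Eno2 did not pass the test. The widely expressed enolase Eno1 was not analysed here. Pgam2, the muscle phosphoglycerate mutase, had the lowest p of all members. Its 250 bases before the annotated start are shown because they hold more E-boxes (CANNTG, bound by basic helix-loop-helix factors) than any other member's window. They lie at chr11:5803797-5804046 on the minus strand of GRCm38.p6 (RefSeq). The 5 matches are in capitals.
Pgam2: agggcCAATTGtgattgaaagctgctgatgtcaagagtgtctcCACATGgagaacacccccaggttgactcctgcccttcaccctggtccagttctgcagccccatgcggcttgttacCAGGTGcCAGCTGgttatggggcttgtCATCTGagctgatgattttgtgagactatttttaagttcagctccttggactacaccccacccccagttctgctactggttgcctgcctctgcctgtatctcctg

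Pgam2 read 15.11 and 15.05 in the controls and 14.56 and 14.54 in Salv CKO (mMC015702). The pools of each group lay close together and the groups were far apart for that spread, a fall of 0.53 ± 0.06 on the log2 scale (limma adjusted p = 0.0144), to 69.4% of control. Pgam1, the form of most other tissues, read 12.74 and 12.53 against 12.67 and 12.28. Its groups overlapped, and the difference of -0.16 had an interval of -0.56 to 0.24.

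Eno3, the muscle enolase, read 14.94 and 14.99 in the controls and 14.48 and 14.66 in Salv CKO (mMC025947). It fell by 0.39 ± 0.08 on the log2 scale (limma adjusted p = 0.0481), the call closest to the threshold among the members. The dim second probe of Eno3 gave -0.19 ± 0.49, and the mean of both probes gave -0.29. In the fit over all probes the brighter probe was not called (limma adjusted p = 0.0684). Over the alternatives the limma adjusted p of Eno3 reached 0.460. Eno2, the enolase of neurons, read 7.51 and 7.80 against 7.01 and 6.38. Both knockout pools were lower, and the difference of -0.96 ± 0.28 did not pass (limma adjusted p = 0.106).

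Pgk1, phosphoglycerate kinase, read 13.54 and 13.66 in the controls and 13.34 and 13.82 in Salv CKO. Its knockout pools straddled the controls, with a difference of -0.02 (interval -0.46 to 0.42). Pkm2, the pyruvate kinase gene now named Pkm, differed by -0.14, within an interval of -0.52 to 0.25. The Gapdh probe was dim, at normalised intensities of 39.4 to 75.3, and its difference of 0.44 ± 0.38 did not pass (limma adjusted p = 0.535). Several of these genes have processed pseudogenes of near-identical sequence, and the sources used here do not place the probes.

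**Figure D3:**
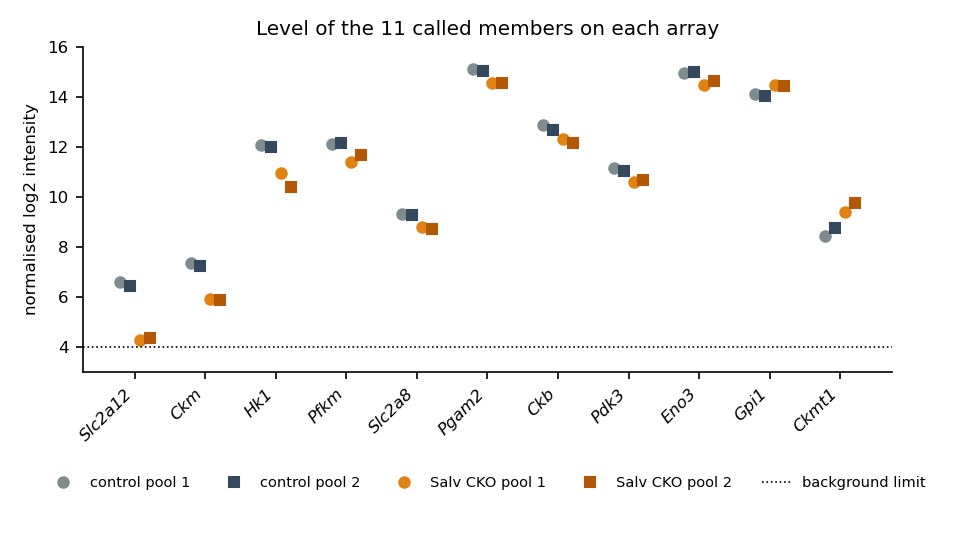
Normalised log2 intensity of the 11 called members on each of the 4 arrays, ordered by their difference, with the background limit of log2 4 as a dotted line. The control and Salv CKO pools are separate for every gene shown. The Salv CKO values of Slc2a12 lie just above the limit.

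At the end of glycolysis, Ldha, the lactate dehydrogenase subunit that favours lactate, was saturated on 3 of 4 arrays. It read 15.95 and 15.68 in the controls and 15.95 and 15.91 in Salv CKO, so a change in its level would be compressed here. Ldha is known as a target of hypoxia-inducible factors, and its upstream window is shown because it had the most matches of any member to the core ACGTG, in capitals together with the overlapping E-boxes. The window is chr7:46845554-46845803 on the plus strand of GRCm38.p6 (RefSeq). Of the 5 matches over both strands, 4 belong to a pair of palindromes that each count as a match on either strand. Another RefSeq window of Ldha, chr7:46846832-46847081, held 0 matches to ACGTG and is not shown.
Ldha: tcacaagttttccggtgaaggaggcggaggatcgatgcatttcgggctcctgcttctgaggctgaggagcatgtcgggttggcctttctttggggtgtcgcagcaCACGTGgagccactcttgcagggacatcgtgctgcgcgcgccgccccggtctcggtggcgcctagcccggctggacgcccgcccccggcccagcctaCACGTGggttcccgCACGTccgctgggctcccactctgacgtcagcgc

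Pdk3, a pyruvate dehydrogenase kinase, read 11.14 and 11.02 in the controls and 10.60 and 10.68 in Salv CKO (mMC013212). It fell by 0.44 ± 0.09 on the log2 scale (limma adjusted p = 0.0423), to 73.8% of control. Pdk1, another such kinase and a known hypoxia target, read 13.35 and 13.33 against 13.70 and 13.35. A single knockout pool lay clearly above the controls, and the difference of 0.19 was not called (limma adjusted p = 0.421). Pdk2 was spread over 4.70 and 6.37 in the knockout pools and gave an interval of -1.94 to 1.19. Pdk4 (3.24 and 2.81 against 0 and 4.10) and the testis form Ldhc (0 and 2.60 against 4.56 and 3.56) were each above background on 1 array.

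Bnip3, a mitophagy receptor, and Egln3, a prolyl hydroxylase that marks hypoxia-inducible factors for degradation, are both induced by low oxygen. Bnip3 read 9.70 and 9.76 in the controls and 9.38 and 9.52 in Salv CKO. Both pools were lower, by 0.28 ± 0.10, without passing the test (limma adjusted p = 0.167). Egln3 read 9.17 and 8.76 against 9.49 and 8.96, overlapping values with a difference of 0.26 (interval -0.35 to 0.86). Neither gene was called after quantile normalisation, and Bnip3 was called lower with the values as deposited (-0.74, limma adjusted p = 0.0285).

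The 4 creatine kinases did not move together. Their upstream windows are shown because this family holds both the fall of Ckm and the rise of Ckmt1. Each window is the 250 bases before a RefSeq start in GRCm38.p6. They are chr7:19410844-19411093 on the plus strand for Ckm, chr12:111672339-111672588 on the minus strand for Ckb, chr13:91876886-91877135 on the minus strand for Ckmt2, and chr2:121357526-121357775 on the plus strand for the first of 2 Ckmt1 starts. Capitals mark matches on either strand to the M-CAT core GGAATG of Tead factors, which bind Yap (CATTCC in the window of Ckmt1 is the same core on the other strand). They also mark the E-boxes and the match to the Mef2 pattern.
Ckm: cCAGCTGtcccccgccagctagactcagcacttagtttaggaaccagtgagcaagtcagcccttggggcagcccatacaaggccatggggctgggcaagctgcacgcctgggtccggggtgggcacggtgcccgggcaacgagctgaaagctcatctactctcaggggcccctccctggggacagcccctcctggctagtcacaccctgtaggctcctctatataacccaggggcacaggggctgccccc
Ckb: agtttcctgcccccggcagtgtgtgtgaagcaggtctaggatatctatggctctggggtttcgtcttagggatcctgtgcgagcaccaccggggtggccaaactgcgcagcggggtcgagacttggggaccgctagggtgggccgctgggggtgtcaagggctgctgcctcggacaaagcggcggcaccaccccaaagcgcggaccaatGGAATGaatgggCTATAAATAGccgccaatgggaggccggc
Ckmt2: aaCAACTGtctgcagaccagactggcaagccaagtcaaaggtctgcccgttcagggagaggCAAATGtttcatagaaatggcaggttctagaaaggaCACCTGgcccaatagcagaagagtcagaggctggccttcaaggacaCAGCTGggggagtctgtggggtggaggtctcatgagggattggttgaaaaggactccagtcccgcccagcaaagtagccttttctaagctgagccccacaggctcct
Ckmt1: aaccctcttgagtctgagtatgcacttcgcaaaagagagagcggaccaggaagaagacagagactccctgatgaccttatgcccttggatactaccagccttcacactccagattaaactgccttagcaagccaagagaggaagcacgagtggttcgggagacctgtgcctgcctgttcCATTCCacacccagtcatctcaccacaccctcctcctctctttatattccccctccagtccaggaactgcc

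Ckm, the muscle form, read 7.36 and 7.23 in the controls and 5.93 and 5.85 in Salv CKO (mMC008636). It fell by 1.40 ± 0.22 on the log2 scale (limma adjusted p = 0.0262), to 37.8% of control, and leaving out an array in turn gave -1.47 to -1.34. Ckb, the brain-type form that the embryonic heart also expresses, read 12.86 and 12.66 against 12.31 and 12.17 (mMR030697). It fell by 0.52 ± 0.10 on the log2 scale (limma adjusted p = 0.0406). The groups did not overlap for either gene.

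Ckmt2, the sarcomeric mitochondrial form, read 7.46 and 7.43 in the controls and 6.02 and 6.70 in Salv CKO. Both knockout pools were below the controls but far from each other, and the difference of -1.08 ± 0.29 was not called (limma adjusted p = 0.0900). It passed with robust eBayes (limma adjusted p = 0.0346) and with dim genes left out (limma adjusted p = 0.0361). With the values as deposited it was -1.40 and passed as well (limma adjusted p = 0.0359).

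Ckmt1, the ubiquitous mitochondrial form, went the opposite way. It read 8.43 and 8.74 in the controls and 9.38 and 9.76 in Salv CKO (mMC007779), a rise of 0.99 ± 0.19 on the log2 scale (limma adjusted p = 0.0397), or 1.98-fold. With the values as deposited it was 0.54 and not called (limma adjusted p = 0.186). Its 95% interval of 0.50 to 1.47 lies wholly above 0, and those of Ckm, Ckb and Ckmt2 lie wholly below it.

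Over 36 of the 38 members RefSeq's promoter table gave 47 upstream windows; Slc2a3 and Slc2a4 had none. GGAATG was present in the windows of Ckb and Eno3 among the 9 genes that fell, of Ckmt1 among the 2 that rose, and of 3 of the 25 others. That is 12.8% of the members' windows, against 12.6% of the 32851 windows of the whole table. The first base of the match lay 41 bases before the start in Ckb and 71 bases before it in Ckmt1. ACGTG was in 25.5% of the members' windows and 16.6% of all. Of the 11 genes that held it 9 were not called, beside 25 of all 36 members with a window. Among the 9 were Pgk1, Hk2, Slc2a1, Bnip3, Egln3 and Ldha, the last saturated on 3 arrays. An E-box was in 63.8% of the members' windows and 66.2% of all, and ACGTG inside CACGTG counts for both motifs. Letters matching the Mef2 pattern (CTATAAATAG) lay in Ckb alone, 29 bases before the start, and whether Mef2 binds them was not tested. That is 1 window, or 2.13% of the members' windows, against 0.508% of all windows. These matches describe letters in a short window and do not show binding.

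The scaling between arrays moved the members by unequal amounts. The median difference over all genes above background was -0.04 after quantile normalisation, -0.03 with each array divided by its 75th percentile, -0.17 with each centred on its median and -0.44 as deposited. The share of all calls that were higher was 46.3%, 40.6%, 22.3% and 6.88% in that order. Among the members the counts higher and lower were 2 and 9, 3 and 9, 1 and 8, and 0 and 16. The 3 called higher with the 75th percentile were Ckmt1, Ldha and Tpi1, the last 2 on probes saturated on 3 and 4 arrays, and Gpi1 was not among them (limma adjusted p = 0.0656). From quantile normalisation to the values as deposited the difference of Ckb went from -0.52 to -1.03, that of Slc2a9 from -1.13 to -0.82 and that of Tpi1 from 0.00 to 0.10. The 9 genes that fell were below 0 under each of these scalings, and Ckmt1 was above 0 under each. Gpi1 changed sign with the values as deposited. Ckb, Eno3 and Gpi1 were not called with arrays centred on their median (limma adjusted p = 0.0509, 0.0581 and 0.470). Members called lower as deposited but not after quantile normalisation were Hk2, Pfkl, Pgam1, Bnip3, Ckmt2, Eno2 and the brighter Slc2a13 probe. Their limma adjusted p was 0.0184 to 0.0455.

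**Figure D4:**
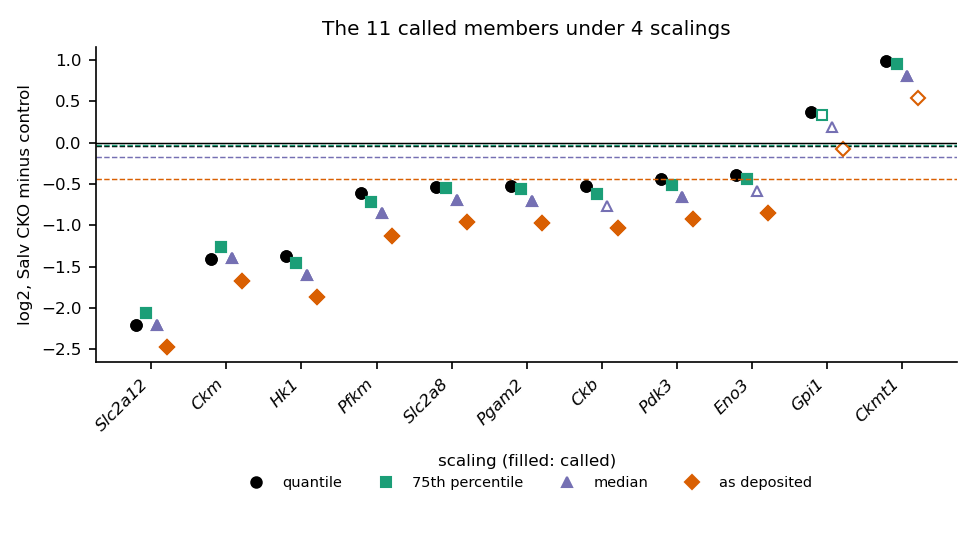
Difference in log2 intensity (Salv CKO minus control) of the 11 called members under 4 scalings, with filled symbols where the gene passed the test. Dashed lines are the median difference of all genes above background under the same scaling, which is -0.44 as deposited and -0.04 after quantile normalisation.

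Further genes of glucose use were read from lists of the pathway's other parts. Of 33 measured genes of glucose entry, storage and side branches, 1 rose and 4 fell, with a median of -0.14. Both glycogen phosphorylases called, the muscle form Pygm (-1.42 ± 0.09, limma adjusted p = 0.00661) and the brain form Pygb (-1.05 ± 0.17), fell, as did Pgm2, a phosphoglucomutase that links glycogen to glycolysis (-0.84 ± 0.09). A second Pgm2 probe, above background on 1 array, was at 0.57, and the mean of both gave -0.13 without a call (limma adjusted p = 0.686). Pygm read 13.23 and 13.25 in the controls and 11.91 and 11.72 in Salv CKO. Tkt, the transketolase of the pentose phosphate pathway, rose by 1.09 ± 0.12 (limma adjusted p = 0.0121). It read 12.17 and 12.23 against 13.14 and 13.44, and was 0.60 with the values as deposited. With the mean of its 2 probes Tkt was at 0.77 and not called (limma adjusted p = 0.0513).

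Of 21 genes of pyruvate and lactate handling, 1 rose and 2 fell (median -0.27). The lactate exporter Slc16a3 (Mct4) fell by 0.61 ± 0.10 on the log2 scale (limma adjusted p = 0.0260), and Dlat, a subunit of pyruvate dehydrogenase, by 0.62 ± 0.11. Ldhd, a D-lactate dehydrogenase, rose by 1.54 ± 0.20 on its brighter probe and was at -0.39 on the other. Of 13 genes of creatine supply and phosphotransfer, 3 fell, with a median of -0.01. They were the creatine transporter Slc6a8 (-0.59 ± 0.08), the creatine-synthesis enzyme Gamt (-0.69 ± 0.11) and the adenylate kinase Ak1 (-1.17 ± 0.22, and -0.18 on its other probe).

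Of 26 hypoxia-inducible factors and other known targets, 3 rose and 1 fell (median -0.08). Mxi1, a Myc antagonist, rose by 1.26 ± 0.20 (0.18 on its other probe), the haem oxygenase Hmox1 by 0.44 ± 0.08 and the histone demethylase Jmjd1a by 0.42 ± 0.07. Hif1an, an inhibitor of these factors, fell by 0.49 ± 0.07 (limma adjusted p = 0.0213); its other probe, near background, was at -0.02, and the mean of both gave -0.25 without a call (limma adjusted p = 0.543). The balance of this list depended on the scaling, with 1 higher and 3 lower both with arrays centred on their median and with the 75th percentile, and 0 higher and 8 lower with the values as deposited. Hmox1 and Jmjd1a were not called under those 3 scalings, and were at -0.04 and -0.09 as deposited. Across these 4 lists 5 of 93 measured genes rose (5.38%) and 10 fell (10.8%), beside 4.92% and 5.70% of all genes, or 10.6% called either way.

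Markers of other cell types moved in the same pools. Heart muscle markers, which check the labelled tissue, were above background on all arrays for 15 of 15 genes. Of these 7 fell (median -0.60), and their summed intensity was log2 19.07 and 19.15 in the controls and 18.87 and 18.88 in Salv CKO. That sum is compressed, since 6 of the 15 genes were saturated on at least 1 array and made up 62.3 to 69.7% of it. Without them it was 17.54 to 17.75 against 17.15 to 17.16, a step chosen after the data had been seen. Endothelial markers fell for 5 of 8 (sum 14.49 to 14.55 against 13.68 to 13.73) and primitive red cell markers for 3 of 9 (17.08 to 17.09 against 16.80, and 16.20 to 16.25 against 15.63 to 15.70 without Hba-x, which was saturated on 3 arrays). The red cell marker Epb4.2 was above background on no array.

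Some markers of other tissues and of the epicardium rose, in most lists fewer than those that did not pass the test. Of all genes 4.92% rose and 5.70% fell. Neural tube markers rose for 4 of 10 and fell for 1, Nes (-0.75) (sum 13.14 to 13.35 against 13.95 to 13.96). Olig2, at -0.11 and not called, made up 29.5 to 56.5% of the neural tube sum. Without Olig2 it was 12.00 to 12.15 against 13.37 to 13.45. Neural crest markers rose for 5 of 9 (13.88 to 13.89 against 15.64 to 15.65), with Foxd3 and Dlx5 above background on no array. Crabp1 alone made up 88.2 to 92.7% of that sum, which was 10.72 to 10.80 against 11.87 to 12.03 without it. Somite markers rose for 3 of 8 (9.19 to 9.27 against 11.91, Myf5 on no array). Tcf15 made up 56.8 to 79.6% of the somite sum, which was 7.83 to 7.98 against 9.62 to 9.73 without it. Endoderm markers rose for 4 of 11 (11.61 to 11.79 against 13.05 to 13.06) and epicardial markers for 2 of 5 (10.22 to 10.28 against 11.09 to 11.24, Wt1 and Tcf21 on no array). Upk3b made up 55.5 to 71.4% of the epicardial sum, which was 8.42 to 8.54 against 9.92 to 10.05 without it. Leaving out the brightest gene was chosen after the data had been seen. The falls of Pgam2, Eno3 and Ckm, that of the brighter Pfkm probe and the rise of Ckmt1 were thus read in pools whose cell type markers also differed. The part of these markers in the members' values was not tested.

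**Figure D5:**
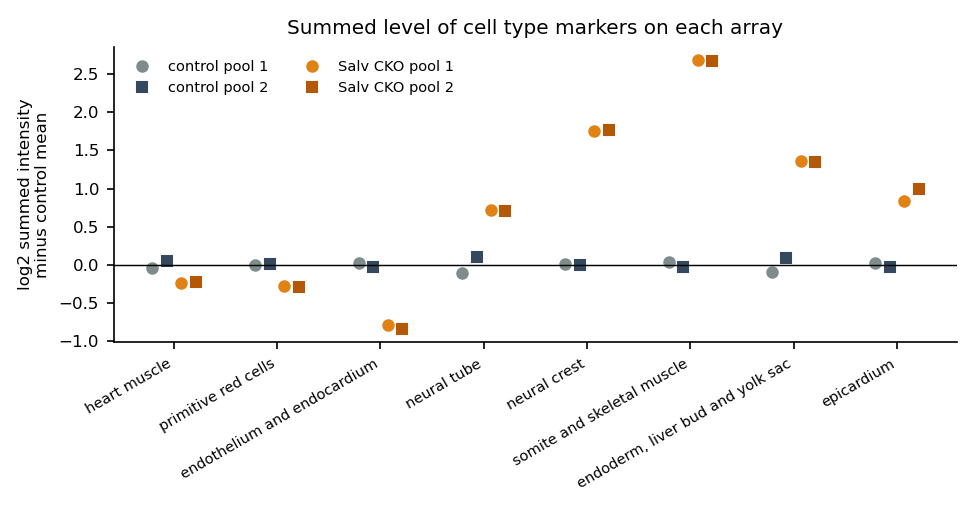
Summed normalised intensity of the markers of 8 cell types on each array, as log2 relative to the mean of the controls. Sums of heart muscle, red cell and endothelial markers are lower in both Salv CKO pools, and those of the other 5 lists are higher.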

How the data were processed

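Total RNA of pooled whole hearts was amplified with amino-allyl nucleotides and labelled with Cy5, per the labels' protocols. The authors deposited linear probe intensities. The sources used here name no scanner, background method or software. The deposited intensities were below 0 for 3.37 to 5.99% of probes per array, and every value was a whole multiple, within 0.02 of a step, of its array's factor of 0.891 to 1.03. Samples were grouped by their titles.

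Quantile normalisation used limma 3.58.1 in R 4.3.3, and values were floored at 1 and put on the log2 scale. The probe table of 2013 named 1 gene for 21020 of 29922 probes and none for 8902. Each gene was read with the probe of highest mean over the 4 arrays, and other probes were fitted at probe level. Saturation was an unscaled intensity of at least 65000. Limma (lmFit, eBayes with an intensity trend) compared the groups, two-sided, with Benjamini-Hochberg adjustment. Limma was also run on simulations of 16675 genes with independent normal noise. In each, 200 genes were raised, with the dimmest genes left out of that choice. It recovered 3.6% of 1.5-fold, 32.0% of 2-fold and 67.6% of 4-fold rises, and 5.9% of its calls were false. The data gave 1772 calls, far more than the 200 genes raised, so these shares need not hold for them. The number of arrays limits the precision.

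Members and lists were chosen with earlier results of these data known. Values were given on every array for members past an adjusted p of 0.05, at an absolute difference of at least 0.5, or with probes of opposite sign, and for others by role. Up to 4 called genes of largest difference were named per further list. Pkm2 was matched to Pkm through RefSeq synonyms. Promoter windows and motifs were chosen after the values had been seen. Alternatives were the scalings, floors of 16 and 64, log2(value + 16), a filter on dim genes, the mean of probes, no trend, robust eBayes, each array left out and the replicate number as a block.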

Additional observations from a re-analysis of the deposited data

How the results depend on the processing

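Of 121 values of the 11 called members under the alternatives other than leaving out an array, 80 kept direction and call, 38 kept the direction without passing, and 3 changed sign. Those were Gpi1 with the values as deposited (-0.081) and with the mean of all probes (-0.089), and Pfkm with the mean of all probes (0.18). With any 1 array left out, 0 of all genes passed by limma, members and further lists included. At an unadjusted p under 0.05 there were then 8 to 12 members lower and 3 to 4 higher, 1633 to 1926 and 1378 to 1717 over all genes, and 20 to 28 genes of the further lists. Without the intensity trend 0 also passed (12 and 4 members and 1897 and 1681 genes at an unadjusted p under 0.05, and 19 genes of the further lists).

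A floor of 16 left 1 member lower (Slc2a12) and 0 higher, with 228 and 253 over all genes, and a floor of 64 left 1 (Ckm) and 0, with 234 and 257; 1 gene of the further lists passed with each, against 15. Either floor leaves many dim genes with no spread. At an unadjusted p under 0.05 either floor gave 12 members lower and 3 higher, with 2160 and 1923 over all genes at 16 and 1991 and 1742 at 64. As deposited, 16 members were lower and 0 higher (1 at an unadjusted p under 0.05, and 527 of all genes), with 3101 and 229 over all genes and 33 of the further lists. With arrays centred on their median 1 member and 377 genes were higher. With the mean of all probes 1 member was higher, and 9 genes of the further lists passed. With dim genes left out 1240 genes were higher.

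Of the 27 members not called, 19 were above background on all arrays and not saturated on all 4, and their values changed sign 18 times. With values as deposited these were Slc2a3 (-0.32), Pdk1 (-0.30) and Egln3 (-0.17). With arrays centred on their median they were Slc2a3 (-0.048) and Pdk1 (-0.027). Others were Pfkp divided by the 75th percentile (0.022), Pdk2 with a floor of 64 (0.18) and Slc2a13 with the mean of all probes (0.75). With 1 array left out the values ranged from -0.86 to 0.048 for Slc2a1, -0.75 to 0.37 for Pfkp, -0.36 to 0.038 for Pgam1, -0.26 to 0.22 for Pgk1, -0.33 to 0.049 for Pkm2, -0.021 to 0.25 for Ldha, -1.21 to 0.45 for Pdk2 and -0.0010 to 0.52 for Egln3. Under the alternatives other than leaving out an array, 17 of 209 values of these 19 members passed the test. The cause of the changes of sign and of call was not tested.

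The replicate numbers share no stated litter or day, and deviations of same-numbered pools correlated at 0.147. With the replicate block 10 members were lower and 2 higher, and the 11 called members all passed. Near background, intensity limits what the arrays resolve for 7 members.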
